A study of Rattus norvegicus with 13 samples.

Results

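Wnt ligands and the secreted proteins that hold them back were followed in the fat of 13 rats. The set was named by gene symbol and not by a cut on measured values, but it was chosen with earlier results of these data known. It comprises 9 genes, of which 8 had a probe listed under their symbol, among 14506 genes measured in all. The 8 were the ligands Wnt5a and Wnt10b and the secreted antagonists Sfrp1, Sfrp2, Sfrp4, Sfrp5, Dkk3 and Wif1, with 1 probe set each. The ligand Wnt11 had no probe listed under its symbol and was not analysed here. All animals were females of the outbred Sprague Dawley strain and ate standard chow from weaning at 3 weeks until their fat was taken at 14 weeks. The groups differed in what the father had eaten. The control group (7 rats) had fathers on standard chow with 9% fat, and the high-fat group (6 rats) had fathers on high-fat pellets with 43% fat, which were heavier, glucose intolerant and insulin resistant. Mating took place when the fathers were 15 weeks old, and the mothers were on chow. Per the series description, daughters of high-fat fathers were glucose intolerant at a body weight and adiposity like those of the controls. RNA from each rat was read on 1 Affymetrix array, and each rat is called here by the number in its label. Which fat depot was taken, and how the daughters were related to each other, was not stated, so a p-value reflects only how far these rats vary, which may be partly technical.

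Wnt ligands are secreted lipid-modified proteins that bind Frizzled receptors. Together with the co-receptors Lrp5 and Lrp6, canonical ligands such as Wnt10b keep beta-catenin from being degraded, and in preadipocytes this blocks adipogenesis. Wnt5a acts mostly through receptors such as Ror2, without beta-catenin. The secreted frizzled-related proteins (Sfrp) carry a Frizzled-like domain and bind Wnt ligands outside the cell, Wif1 binds ligands through its own Wif domain, and Dkk3 is the divergent member of the Dickkopf family. In fat, Sfrp5 has been studied as an adipokine that opposes Wnt5a, and Sfrp4 has been linked to impaired insulin secretion.

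The deposited values were log2 levels with array medians of 7.66 to 7.72. Precision is limited by having 7 and 6 arrays. Adipocyte markers were high throughout, with the mean of 8 genes between 12.48 and 12.95. The pieces of fat differed in what else they held. Skeletal muscle markers (9 measured) averaged 11.84 to 12.01 in controls 662 and 664, 11.90 in high-fat 629 and 9.19 in high-fat 619, against 7.12 to 7.27 in the other 9 arrays. Smooth muscle markers (5 measured) were highest in control 658, at 12.42, against 10.19 to 11.29 elsewhere, and this array also had the smallest spread of values (SD 1.78 over all probes, against 1.86 to 1.96 elsewhere). All 5 measured mesothelium markers averaged lower in high-fat daughters (list means of 7.53 to 9.29 in controls and 7.49 to 8.84 in high-fat daughters). So did all 5 smooth muscle markers, while all 8 adipocyte and all 5 measured endothelium markers averaged higher. The remaining marker lists had genes in both directions. Over all genes, 42.0% averaged lower in high-fat daughters and 58.0% higher. In bulk tissue, fewer cells of a type and less RNA per cell cannot be told apart.

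None of the 8 genes was called different between daughters of high-fat and control fathers. The range of values overlapped between the groups for 8 of 8, where 0.0827% of all genes had groups without overlap. By limma, 0 of 8 passed an adjusted p of 0.05 (0.0% of all genes did), and 0 of 8 had an unadjusted p under 0.05, against 7.96% of all genes. The mean was lower in the high-fat group for 5 of 8 genes (42.0% of all genes) and higher for 3 of 8 (58.0% of all genes), and the median difference over the 8 genes was -0.02 log2 units, beside 0.03 over all genes. Exact permutation tests over all 1716 arrangements of the arrays gave two-sided p-values between 0.17 and 0.994.

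**Figure D1:**
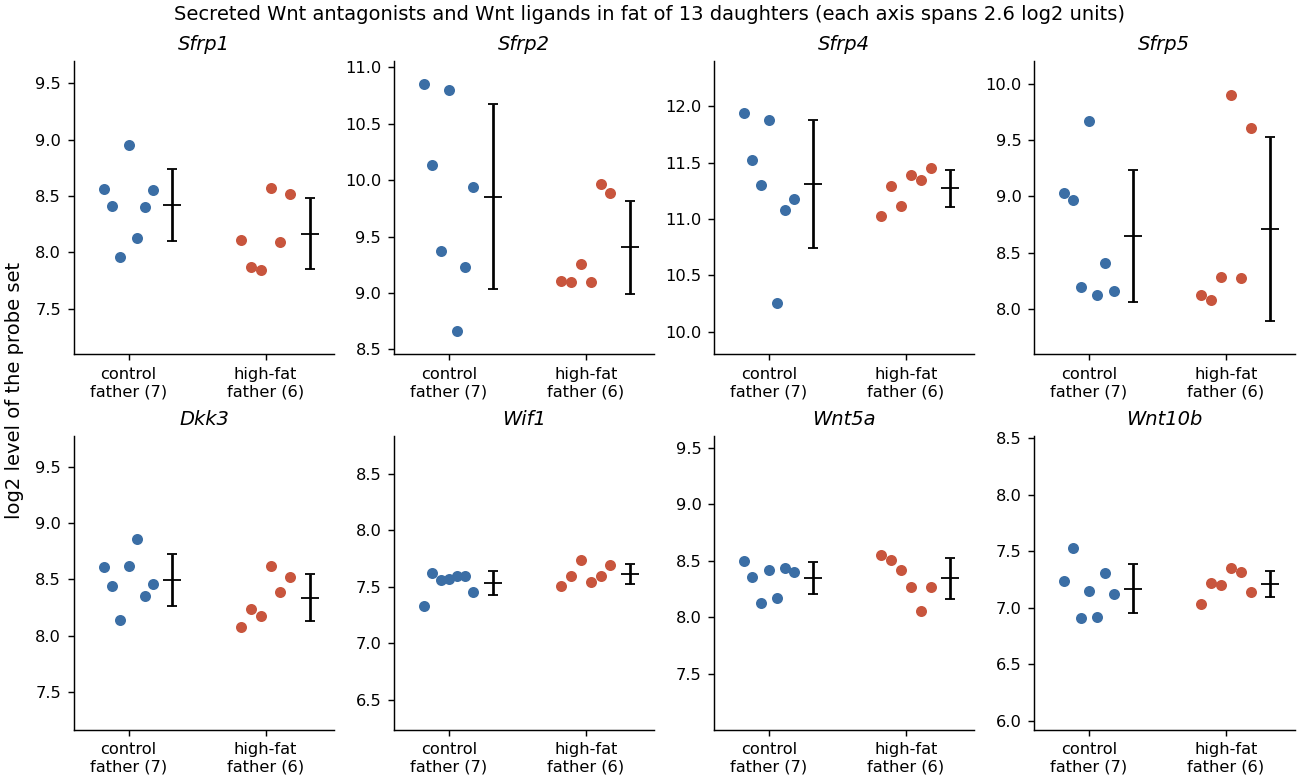
Log2 level (vertical axis) of the 8 measured genes in daughters of control (blue, 7 arrays) and high-fat fathers (red, 6 arrays), points shifted sideways for legibility; the bars give mean and SD. Sfrp2, Sfrp4 and Sfrp5 varied most among rats, by 2.19, 1.68 and 1.82 log2 units, and the groups overlapped in every panel.

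Sfrp2, a secreted frizzled-related protein made by stromal cells, varied most of the set and had the largest difference between group means. Its range over the 13 arrays, 2.19 log2 units or 4.57-fold, was wider than that of 98.9% of all genes. In controls its log2 level ran from 8.66 over a median of 9.94 to 10.85, with control 658 lowest and controls 622 and 656 highest (10.85 and 10.80). In high-fat daughters it ran from 9.10 over a median of 9.18 to 9.97. Of the 6 high-fat daughters 4 lay between 9.10 and 9.26, while 660 (9.97) and 663 (9.89) were near the control median. Means were 9.85 ± 0.82 (SD, n = 7) and 9.40 ± 0.41 (SD, n = 6), a difference of -0.45 ± 0.33 (SE) or 0.733-fold, with a 95% interval of -1.15 to 0.25 (limma, unadjusted p = 0.193, adjusted p = 0.55 over all genes). The exact permutation p was 0.248. With array spread as a covariate the difference was -0.71 (limma, adjusted p = 0.999), and with array weights it was -0.80 (adjusted p = 0.31). It was -0.28 without control 622, -0.29 without control 656 and -0.65 without control 658. Further, it was -0.97 in daughters numbered 619 to 631 (3 controls and 4 high-fat) and 0.27 in those numbered 656 to 664 (4 and 2), 2 number ranges whose meaning is not given. The contrast between the number ranges was 1.25 ± 0.64 (SE) in limma's interaction fit, with an unadjusted p of 0.0723 and an adjusted p of 0.999, where 0.0% of all genes passed and 3.47% had an unadjusted p under 0.05.

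Sfrp4 had group means that lay close together, while controls were spread more widely than high-fat daughters. Levels in controls were 10.26 at the lowest, 11.30 at the median and 11.94 at the highest, and in high-fat daughters 11.03, 11.32 and 11.45. Control 658 stood lowest by a wide margin and controls 622 and 656 (11.88) stood highest, so that all 6 high-fat daughters lay inside the control range. Means were 11.31 ± 0.57 (SD, n = 7) and 11.27 ± 0.17 (SD, n = 6), a difference of -0.04 ± 0.22 (SE) with an interval of -0.50 to 0.43 (limma, adjusted p = 0.946). The difference was -0.21 without control 658, 0.07 without control 622 and -0.29 when array spread was a covariate. The SD of the controls was 0.36 without 658. The difference in spread was not tested.

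Sfrp1 binds Wnt ligands through the same kind of domain. Its level ran from 7.96 over 8.41 to 8.95 in controls and from 7.84 over 8.10 to 8.57 in high-fat daughters. Of the high-fat daughters, 4 of 6 were below the control mean, and 629 and 663 were above it. The difference was -0.26 ± 0.16 (SE), with an interval of -0.60 to 0.09 and means of 8.42 ± 0.32 (SD, n = 7) and 8.17 ± 0.31 (SD, n = 6). It did not pass limma's test, with an unadjusted p of 0.131 and an adjusted p of 0.529, and it was -0.17 without control 656. The difference of Sfrp1 was -0.44 with array weights (limma, unadjusted p = 0.0114, adjusted p = 0.31) and -0.39 without the 3 arrays of smallest spread (unadjusted p = 0.034, adjusted p = 0.506).

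**Figure D2:**
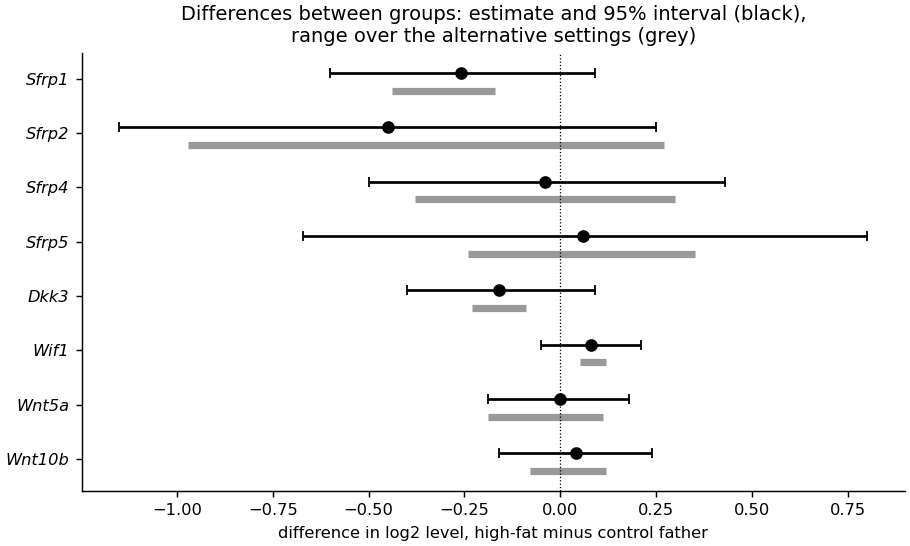
Difference in log2 level, high-fat minus control (horizontal axis), for each gene: black points and bars are limma's estimate with its 95% interval, grey bars the range over the alternative settings. Every interval includes 0, and the grey bars of Sfrp1, Dkk3 and Wif1 stay on one side of it.

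Sfrp5 levels lay in separate ranges that both groups shared. Levels were 9.90 in high-fat 629, 9.67 in control 656 and 9.61 in high-fat 663, 9.03 in control 622 and 8.97 in control 627, and between 8.08 and 8.41 in the other 8 arrays. The arrays were divided at the gap from 8.41 to 8.97, and not at the slightly wider one from 9.03 to 9.61. The 5 higher arrays comprised 3 controls and 2 high-fat daughters, and the 8 lower ones 4 and 4. Group means were 8.65 ± 0.58 (SD, n = 7) and 8.72 ± 0.82 (SD, n = 6), with a difference of 0.06 ± 0.34 (SE), an interval of -0.67 to 0.80 and an adjusted p of 0.941 in limma. The difference was -0.17 without high-fat 629 and 0.23 without control 656.

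The 3 genes whose pattern over the 13 arrays was most like that of Sfrp5 were Cdh19, a cadherin of the Schwann cell lineage, Cdh1, E-cadherin, and Ugt8, the enzyme that makes galactosylceramide of myelin. Pearson's r was 0.99, 0.98 and 0.98, as a measure of likeness over arrays that fall into separate ranges, and 51 genes had an r above 0.9. Schwann cells are the glia that wrap axons of peripheral nerves. Cdh19 ran from 6.82 to 8.40 in the 5 arrays with higher Sfrp5 and from 5.54 to 6.35 in the other 8. Ugt8 ran from 7.55 to 9.42 in the former and from 5.93 to 7.01 in the latter.

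A list of 12 Schwann cell and myelin genes without these 3 was written after their likeness to Sfrp5 had been seen, and 10 of it were measured. For 5 of the 10, all 5 arrays with higher Sfrp5 lay above all 8 others, which held for 0.6% of all genes. Because the list followed from values of these same arrays, this count is a description and no test. Pmp2, a lipid-binding protein of peripheral myelin, was 9.31 to 11.42 in the 5 arrays and 6.63 to 8.69 in the 8. Prx, periaxin of the myelin sheath, was 8.46 to 9.25 against 7.38 to 8.14. Pmp22, a membrane protein of compact myelin, was 13.37 to 13.78 against 12.60 to 13.04. The other 2 were Mag, the myelin-associated glycoprotein, and Sox10, the transcription factor of the Schwann lineage (8.45 to 8.82 against 8.14 to 8.39). Levels overlapped for Mbp, Egr2, S100b, Gjb1 and Ngfr. The list mean was 8.64 to 9.64 in controls and 8.78 to 9.55 in high-fat daughters, and the part of such cells in the Sfrp5 levels was not tested. With the list mean as a covariate, chosen after seeing the data, the difference of Sfrp5 was 0.10 (limma, adjusted p = 0.546).

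For 2 of the 86 other Wnt pathway genes measured, all 5 arrays with higher Sfrp5 lay above the other 8 (0.6% of all genes). These were Sostdc1, a secreted antagonist that binds Lrp5 and Lrp6 (7.88 to 8.81 against 6.72 to 7.30), and Lgr5, a receptor for R-spondins (6.50 to 7.39 against 5.63 to 6.25). Among the set itself, Sfrp4 parted the same arrays narrowly, with 11.39 to 11.94 against 10.26 to 11.35. Sfrp1 overlapped, at 8.41 to 8.95 against 7.84 to 8.55, and so did Sfrp2. Ucp1, the uncoupling protein of brown and beige fat, was 11.02 in high-fat 629 and 10.96 in 663, which are among the 3 arrays highest in Sfrp5, but 6.41 in control 656, the remaining one. Ucp1 was 9.28 and 9.76 in controls 658 and 662, which were among the 8 arrays lower in Sfrp5. Skeletal muscle markers were at 11.90 in high-fat 629 and at 7.12 to 7.27 in the remaining 4 of the 5 arrays.

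**Figure D3:**
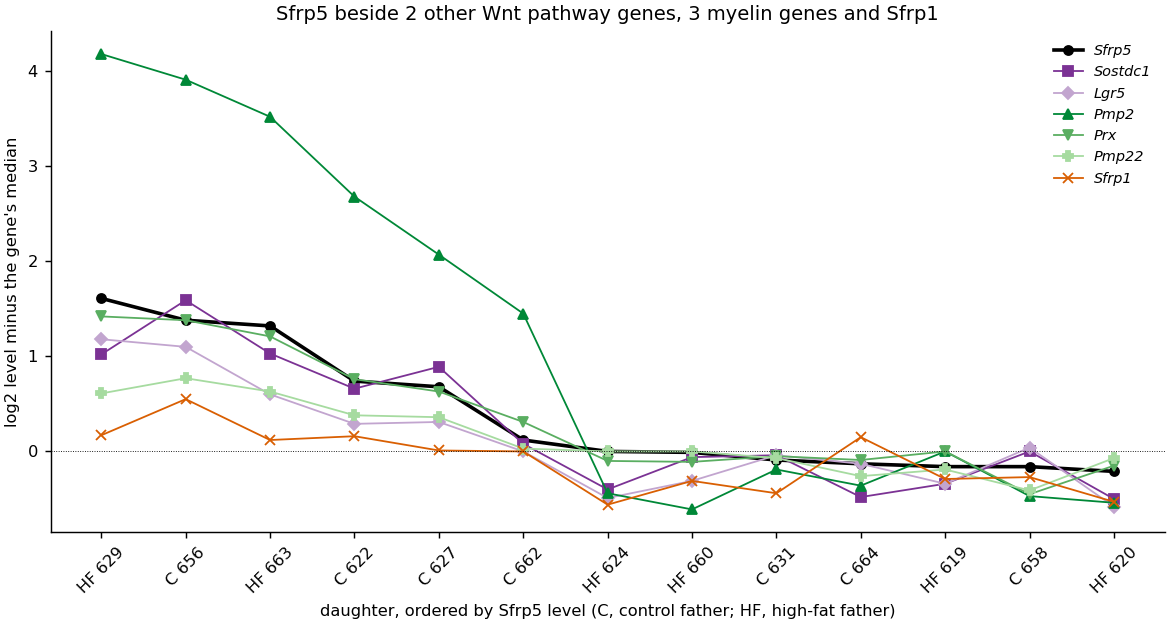
Log2 level minus the median of each gene (vertical axis) in the 13 daughters, ordered from left to right by Sfrp5, for Sfrp5, Sfrp1, the Wnt pathway genes Sostdc1 and Lgr5 and the myelin genes Pmp2, Prx and Pmp22. High-fat 629, control 656, high-fat 663, control 622 and control 627 stand above the other 8 arrays for each gene except Sfrp1. The pathway and myelin genes drawn are ones that parted these arrays. Mbp, Egr2, S100b, Gjb1 and Ngfr of the same Schwann and myelin list overlapped and are not drawn.

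The promoters of Sfrp5 and Sfrp2 are shown because these genes ranged most widely among the rats. Both are 300 bases of RefSeq sequence on build GRCr8, from 250 bases before the start of the gene to 50 after it, 5′ to 3′ on the strand of the gene, and 4 of the 8 genes matched an entry of that table. Capitals mark ACAAAG, a core bound by HMG-box proteins such as Sox factors and, read as CTTTGT on the opposite strand, by the Tcf and Lef partners of beta-catenin. Sfrp5 lies on the minus strand at chr1:250960463-250960762, and Sfrp2 on the plus strand at chr2:171387286-171387585.
Sfrp5: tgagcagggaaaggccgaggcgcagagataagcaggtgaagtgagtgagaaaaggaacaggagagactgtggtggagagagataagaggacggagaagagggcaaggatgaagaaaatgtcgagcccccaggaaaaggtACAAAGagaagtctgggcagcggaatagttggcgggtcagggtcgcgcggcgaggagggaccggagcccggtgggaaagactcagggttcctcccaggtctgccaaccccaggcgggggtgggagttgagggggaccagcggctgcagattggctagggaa
Sfrp2: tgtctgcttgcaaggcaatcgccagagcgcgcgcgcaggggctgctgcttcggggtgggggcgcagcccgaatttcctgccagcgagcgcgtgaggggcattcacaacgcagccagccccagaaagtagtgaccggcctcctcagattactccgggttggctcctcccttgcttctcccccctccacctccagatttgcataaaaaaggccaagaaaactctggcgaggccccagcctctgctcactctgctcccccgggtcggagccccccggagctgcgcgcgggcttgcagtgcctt
Sfrp5 held ACAAAG once, starting 111 bases before the gene's start. It was absent on both strands from the Sfrp2, Wif1 and Wnt5a windows, and 18.3% of 27457 promoters of this length held it on either strand. The other Tcf and Lef core searched, CTTTGA, was on neither strand in these 4 windows, against 15.9% of all promoters. CG dinucleotides numbered 14 in the Sfrp5 window and 21 in that of Sfrp2, against a median of 7 over all promoters. They numbered 32 for Wif1 and 30 for Wnt5a. A match is a description of the sequence, and the arrays measured no binding or methylation.

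Dkk3 and Wif1 are antagonists outside the Sfrp family. Dkk3 ran from 8.14 over 8.46 to 8.86 in controls and from 8.08 over 8.32 to 8.62 in high-fat daughters, highest in control 658. Its difference was -0.16 ± 0.11 (SE) with an interval of -0.40 to 0.09, and it did not pass limma's test (adjusted p = 0.549). Without control 658 the difference was -0.10, and all 5 smooth muscle markers averaged lower in high-fat daughters when that array was kept, with a list difference of -0.43. Without it 4 of 5 averaged lower, Myh11 was at 10.27 in controls and 10.28 in high-fat daughters, and the list difference was -0.18. Des differed most, by -0.54, against -0.17 for Cnn1, -0.11 for Acta2 and -0.09 for Tagln. Its levels were high in the muscle-bearing arrays 662, 664 and 629, so the list difference cannot be read as smooth muscle alone. The part of smooth muscle in the Dkk3 levels was not tested. Wif1 had the smallest range of the set, 0.41 log2 units, from 7.33 in control 622 to 7.74 in high-fat 624. Its levels were 7.53 ± 0.11 (SD, n = 7) and 7.61 ± 0.09 (SD, n = 6), with 5 of 6 high-fat daughters above the control mean and a difference of 0.08 ± 0.06 (SE). This did not pass either (limma, adjusted p = 0.55, interval of -0.05 to 0.21). Wif1 and Wnt10b lay below the median level of all genes, and how far they stood above background was not examined.

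Neither ligand passed the test between groups. Wnt5a, the ligand that Sfrp5 opposes, had a mean of 8.35 in both groups, with SDs of 0.14 (n = 7) and 0.18 (n = 6). Its values ran from 8.13 over 8.40 to 8.50 in controls and from 8.06 over 8.34 to 8.55 in the other group, with a difference of 0.00 ± 0.09 (SE) with an interval of -0.19 to 0.18 (limma, adjusted p = 0.999). The 3 lowest values of Wnt5a, 8.06 in high-fat 660, 8.13 in control 631 and 8.17 in control 658, were in the 3 arrays with the smallest spread over all probes (SD of 1.86, 1.86 and 1.78). In a fit with array spread as a covariate the difference between groups was -0.13 (limma, unadjusted p = 0.046, adjusted p = 0.999). The part of array spread in the Wnt5a levels was not tested. Wnt10b, the ligand known for holding back adipogenesis, ran from 6.91 over 7.15 to 7.53 in controls and from 7.03 over 7.21 to 7.35 in high-fat daughters. Control 627 was highest, and controls 631 and 658 were lowest at 6.91 and 6.92. The difference was 0.04 ± 0.10 (SE), with an interval of -0.16 to 0.24 and an adjusted p of 0.849 in limma.

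Among themselves, Sfrp2 and Sfrp4 moved together across the rats. Over 13 arrays Pearson's r was 0.84 (permutation p = 0.00012, adjusted p = 0.00252 over 21 pairs) and Spearman's rho 0.76 (permutation p = 0.00376, adjusted p = 0.0448). Without controls 622 and 656, farthest from the median of Sfrp2, r was 0.69 over 11 arrays, and without control 658 it was 0.86. Within the groups r was 0.94 in controls and 0.53 in high-fat daughters, and it was 0.90 and 0.95 in the lower and upper number ranges. Sfrp1 and Dkk3 passed by rank and not by value, with a rho of 0.75 (permutation p = 0.00427, adjusted p = 0.0448) and an r of 0.60 (permutation p = 0.0296, adjusted p = 0.207). Their r was 0.51 without high-fat 624 and control 656 and 0.86 without control 658, and by number range 0.89 and -0.03. Of the 21 pairs, 1 passed by r, that of Sfrp2 and Sfrp4. Sfrp5 was left out of these pairs because its values fell into separate ranges, with a gap of 0.307 of its range. Sfrp1 and Sfrp2 were kept, with gaps of 0.243 and 0.239 of their ranges, just under the cut of 0.25. The rule that holds this cut was adjusted after the Sfrp5 values were seen. Within the 8 lower arrays of Sfrp5, 7 exact permutation tests against the other genes gave adjusted p-values of 0.794 each. Their r lay between -0.13 and 0.56.

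Marker lists of the cells in fat were set against the 7 genes other than Sfrp5, 56 relations in all, and 0 passed after adjustment (9 had an unadjusted permutation p under 0.05). The smallest adjusted p was 0.0846, shared by 2 relations. One was that of Sfrp4 with the progenitor and fibroblast list (Pearson's r 0.75, permutation p = 0.00242, Spearman's rho 0.65), with r of 0.86 in controls and 0.71 in high-fat daughters and 0.61 without control 658 and high-fat 624. The other was that of Dkk3 with the smooth muscle list (Pearson's r 0.72, permutation p = 0.00302, Spearman's rho 0.58). Here r was 0.71 in controls and 0.62 in high-fat daughters, and 0.63 and 0.86 in the lower and upper number ranges. It was 0.53 without control 658 and 0.39 without control 658 and high-fat 629, so that its size depended in part on these arrays.

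**Figure D4:**
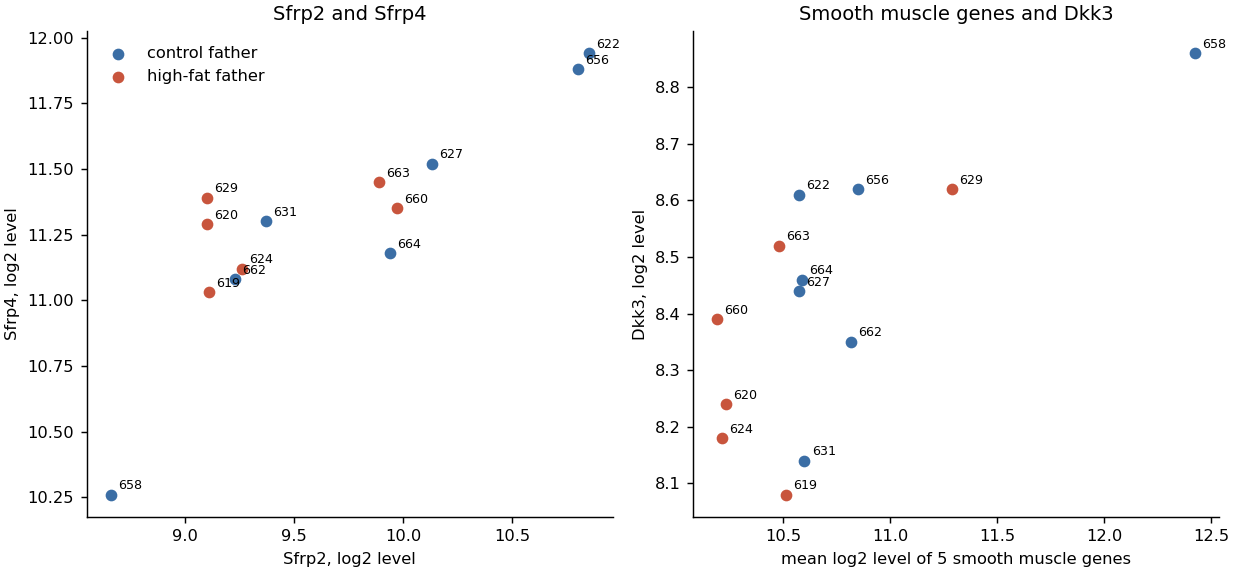
Left, log2 levels of Sfrp2 (horizontal) and Sfrp4 (vertical) in each daughter; right, mean log2 level of 5 smooth muscle genes (horizontal) and Dkk3 (vertical), with rat numbers beside the points (blue, control father; red, high-fat father). Controls 622 and 656 are highest and control 658 lowest in both Sfrp2 and Sfrp4, and control 658 stands alone at the upper right of the second panel.

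The genes most like the other members in pattern were taken by Pearson's r over all 13 arrays, as a description. For Sfrp4 they were Mical1, an actin-oxidising enzyme, S100a4, a calcium-binding protein common in fibroblasts, and Praf2 (r of 0.96, 0.95 and 0.95), and 14 genes had an r above 0.9. For Sfrp1 they were Ncam1, the neural cell adhesion molecule, Fgf18, a growth factor, and Ddah1, an enzyme that breaks down methylarginines (0.92, 0.90 and 0.90). Sfrp2 was most like Elfn1, Peak1 and Slc41a2 (0.89, 0.87 and 0.86), and Dkk3 most like Fam180a, Cdh2, which is N-cadherin, and Cdkn3 (0.86, 0.86 and 0.85). Wnt5a was most like Arrdc4, Zc3h13 and Zfp608 (0.92, 0.92 and 0.90) and Wnt10b most like Rabgef1, Grin2d and Hip1r (0.88, 0.87 and 0.87). For Wif1 the highest values, with Opalin, Dync2i2 and Csta, were 0.81 each.

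The rest of Wnt signalling was read from 8 lists with 86 measured genes of 101 written down. By limma 0 of the 86 passed an adjusted p of 0.05. An unadjusted p under 0.05 was seen for 5 of 86, where 7.96% of all genes had one, with 2 higher (5.42% of all genes) and 3 lower (2.54%). The 2 higher ones were Wls, the carrier that brings Wnt ligands to the cell surface (10.28 ± 0.10, SD, n = 7, and 10.42 ± 0.11, SD, n = 6, difference 0.14 ± 0.06, SE), and Csnk1a1, the kinase that primes beta-catenin for degradation (difference 0.14 ± 0.06). The 3 lower ones were Ror2, a receptor for Wnt5a (8.01 ± 0.12 and 7.85 ± 0.11, difference -0.16 ± 0.07), Ccn5, a secreted Wnt target of preadipocytes also called Wisp2 (8.55 ± 0.16 and 8.35 ± 0.15, difference -0.20 ± 0.08), and the ligand Wnt5b (7.46 ± 0.13 and 7.32 ± 0.06, difference -0.14 ± 0.06). Each of the 5 had an adjusted p of 0.529 in limma. When array spread was a covariate, 0 of the 5 kept an unadjusted p under 0.05. The differences were then 0.07 for Wls, 0.07 for Csnk1a1, -0.08 for Ror2, -0.16 for Ccn5 and -0.09 for Wnt5b, with limma's unadjusted p between 0.098 and 0.195. In daughters 656 to 664, Ror2 differed by -0.02 and Ccn5 by -0.07, while Wnt5b differed by -0.22, Wls by 0.13 and Csnk1a1 by 0.09.

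Of the 15 other Wnt ligands 14 averaged lower in high-fat daughters, with a median difference of -0.04. However, 13 of the 15 lay below the median level of all genes, and 68.3% of all genes below that level averaged lower there, against 15.6% above it. With array spread as a covariate 9 of the 15 were lower and 6 higher, with a median of 0.00. The only ligand with a higher mean was Wnt2 (difference 0.05 ± 0.12, SE). Among 7 other secreted antagonists 3 were higher and 4 lower. Frzb, also known as Sfrp3, had the largest positive difference, at 9.84 ± 0.29 (SD, n = 7) and 10.05 ± 0.57 (SD, n = 6), and Notum, which strips the lipid from Wnt ligands, was at 6.55 ± 0.05 and 6.48 ± 0.09. Neither passed limma's test (adjusted p = 0.633 and 0.534). The difference of Frzb, 0.22 ± 0.22 (SE), was 0.09 without high-fat 619 and likewise without 620, 0.14 without control 658, 0.39 without high-fat 629 and 0.08 with array spread as a covariate. It was 0.64 without the 5 arrays with most Schwann and myelin signal, a setting added after seeing the data.

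Receptors were split, with 9 of 16 higher and 7 lower and a median of 0.01. Adding array spread as a covariate left 5 higher and 11 lower, with a median of -0.04. Fzd4 differed by 0.02 ± 0.07 (SE), the co-receptor Lrp6 by 0.07 ± 0.07 and Ryk, a receptor for Wnt5a, by 0.09 ± 0.06. Of 6 measured genes of the R-spondin branch, which strengthens Wnt signals, 4 were lower, among them Rspo1 (-0.34 ± 0.22), and Lgr4, a receptor of R-spondins, was higher (0.09 ± 0.06). With mesothelium markers as a covariate, a list that averaged lower in high-fat daughters, Rspo1 differed by -0.03. The list's median was -0.19, and 0.01 with array spread as a covariate. Both secretion genes, Wls and Porcn, the enzyme that attaches the lipid to Wnt ligands (0.06 ± 0.08), had higher means. None of those named in this paragraph passed limma's test.

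Of 16 measured beta-catenin pathway components 11 were higher and 5 lower, with a median difference of 0.05, and only 1 of the 16 lay below the median level of all genes. Ctnnb1, beta-catenin itself, was at 10.46 ± 0.17 (SD, n = 7) and 10.62 ± 0.11 (SD, n = 6), a difference of 0.15 ± 0.08 (SE, limma adjusted p = 0.529), and the transcription factor Lef1 differed by -0.10 ± 0.07. Under the array spread covariate 7 of these 16 were higher and 9 lower, with a median of 0.00, and Ctnnb1 differed by 0.07. Of 8 target genes 7 had a lower mean, against 42.0% of all genes, and 4 of the 8 lay below the median level. Axin2, the most used readout of beta-catenin activity, had a mean of 8.31 in both groups (difference 0.00 ± 0.07, interval of -0.15 to 0.14, limma adjusted p = 0.987), and Myc, the one with a higher mean, differed by 0.18 ± 0.12 (0.07 with array spread as a covariate). With that covariate 6 of the 8 targets were lower and 2 higher, with a median of -0.05. In the branches that do not use beta-catenin, 12 of 16 genes were higher and 4 lower, among them Nfatc3, a calcium-dependent transcription factor (0.18 ± 0.10), and Celsr3, a planar polarity cadherin (-0.03 ± 0.05). The difference of Nfatc3 was 0.01 with array spread as a covariate and 0.11 without control 658. Under that covariate 8 of these 16 were higher and 8 lower, with a median of 0.00. The medians of these 3 lists, 0.05, -0.06 and 0.05, lay beside 0.03 over all genes. Over genes above the median level the median difference was 0.09, and over those below it -0.05. In the list of branches without beta-catenin, 4 of the 16 genes lay below that level. Both medians of 0.05 were thus not above that of the brighter genes.

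**Figure D5:**
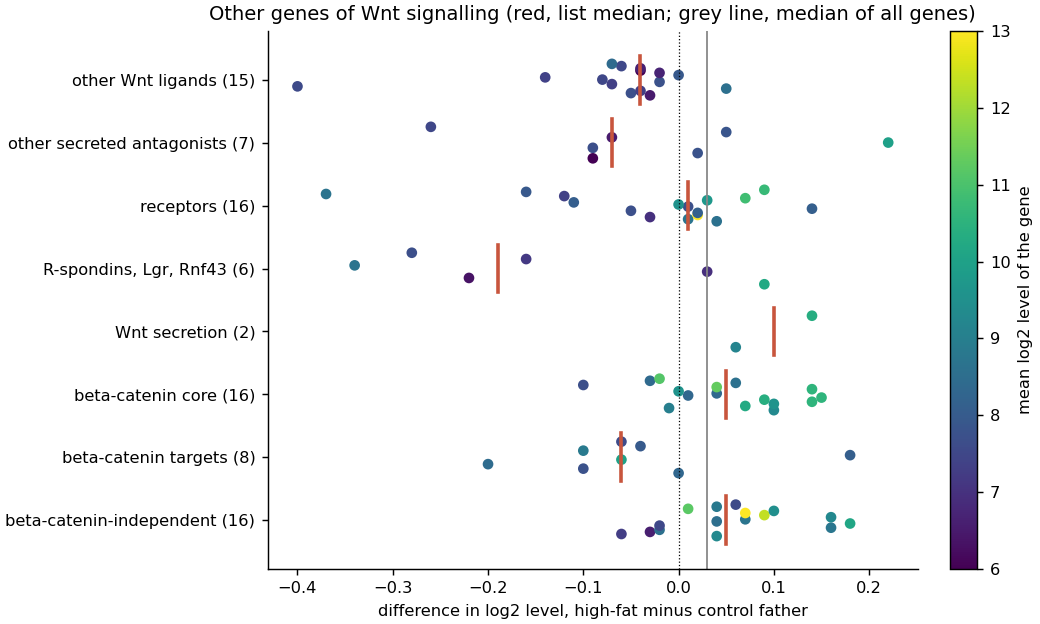
Difference in log2 level, high-fat minus control (horizontal axis), of the 86 other measured Wnt pathway genes by list, coloured by mean level; red bars are list medians and the grey line is the median of all genes, 0.03. Ligands lie mostly to the left and dark (dim), and beta-catenin components mostly to the right and brighter.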

How the data were processed

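RNA from the fat of 13 rats was read on 1 Affymetrix array each with biotin-labelled cRNA, grouped by title. The values that the authors deposited are log2 levels of 29214 probes, from 3.24 to 14.54, made with RMA and Partek per the submitters' processing notes; no version, order or filter was stated there. RMA draws arrays toward a common distribution, and spreads that still differ can move dim and bright genes apart. Probes with 1 symbol in the platform annotation (15310) were used, the brightest per gene, with no filter on dim genes. limma 3.58.1 in R 4.3.3 (lmFit, eBayes) was run over 14506 genes with Benjamini-Hochberg adjustment and no covariate, after a test on simulated data. Correlations used 100000 permutations in Python 3.11.15. A measure was called separated where a gap of at least 0.25 of its range had 3 or more arrays on both sides, a rule adjusted after the Sfrp5 values were seen. Members and lists were chosen with earlier results of these data known. Named were all members, the smallest-p gene of each pathway list in both directions and 9 fixed genes, of which Tcf7l2 was not measured here, and the 3 genes most like each member. Sostdc1, Lgr5, Ucp1 and the Schwann list were added after values were seen. Intervals are 95%. The 32 alternatives were other normalization, centring, gene filter, probe summary and variance settings, array weights, covariates and left-out arrays.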

Additional observations from a re-analysis of the deposited data

Results flagged for a closer look

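Among the genes named above, 56 groups of values were screened for an array that stood far from the rest of its group, and 2 were found, both in control 658; chance would give about 1 in 20. Wnt2, a canonical ligand, was at 8.10 in control 658, against 8.50 in the next control. Nfatc3 was at 9.61 in control 658, against 9.97 in the next. Control 658 was also the array with the highest smooth muscle markers and the smallest spread. None of the 8 members had such an array in either group.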

How the results depend on the processing

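Over 32 alternative settings, 0 genes passed an adjusted p of 0.05 (0.1 in the setting with that threshold), and the 8 members had adjusted p-values of 0.27 to 1.0. The count with an unadjusted p under 0.05 was 1155, and 135 to 2777 over the alternatives. Sfrp1, Dkk3 and Wif1 kept their direction in each where they were tested. The probe summary, variance, gene filter and threshold settings could not turn a member, since each had 1 probe set and its estimate stayed the same. Wif1 and Wnt10b were not tested among genes above the median level. In daughters 656 to 664 the difference turned for Sfrp2 (0.27), Sfrp4 (0.30) and Porcn (-0.03). In daughters 619 to 631 it turned for Sfrp5 (-0.13), Wnt10b (-0.03), Wnt5a (0.11), Wnt2 (-0.10) and Axin2 (0.11). With array spread as covariate it turned for Sfrp5 (-0.12), Wnt10b (-0.02), Wnt2 (-0.03), Lrp6 (-0.03), Fzd4 (-0.01), Porcn (-0.03) and Celsr3 (0.00), and the R-spondin median was 0.01. With array weights it turned for Sfrp5 (-0.24), Wnt10b (-0.04), Wnt5a (0.02) and Axin2 (0.00). Without the 4 muscle-bearing arrays it turned for Sfrp5 (-0.23) and Axin2 (0.01). With arrays centred it turned for Wnt5a (0.02) and Axin2 (0.02). With mesothelium markers as covariate it turned for Wnt5a (0.02), Axin2 (0.02) and Wnt2 (-0.02), with muscle markers for Wnt5a (0.00) and Axin2 (0.01), and with progenitor markers for Wnt5a (0.00). After renewed quantile normalization it turned for Notum (0.00), Celsr3 (0.05) and Porcn (0.00).

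Settings added after seeing the data were fits without the 5 arrays with most Schwann and myelin signal, which gave 0.06 for Sfrp2, 0.24 for Sfrp4, -0.03 for Sfrp5, 0.10 for Wnt5a, 0.00 for Wnt2 and a median of 0.13 for beta-catenin components; with those markers as covariate, 0.00 for Wnt5a; and without the 3 arrays of smallest spread, -0.04 for Sfrp5, -0.08 for Wnt10b and -0.01 for Fzd4. Leaving out single arrays gave -0.34 to -0.17 for Sfrp1, -0.65 to -0.28 for Sfrp2, -0.21 to 0.07 for Sfrp4, -0.17 to 0.23 for Sfrp5, -0.22 to -0.10 for Dkk3, 0.05 to 0.10 for Wif1, 0.00 to 0.10 for Wnt10b, -0.04 to 0.06 for Wnt5a, -0.02 to 0.12 for Wnt2, -0.03 to 0.03 for Axin2 and -0.01 to 0.07 for Fzd4. The causes of these turns were not tested. No paired analysis was possible because the groups share no replicate number.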
